A study of Mus musculus with 8 samples.

Results

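The tubulin genes described here are 4 alpha-tubulins (Tuba1a, Tuba1b, Tuba1c and Tuba4a), 5 beta-tubulins (Tubb2a, Tubb2b, Tubb4b, Tubb5 and Tubb6) and 1 gamma-tubulin (Tubg1). They were taken by gene name from the deposited tables, each was found in 1 row, and these 10 are among 53242 genes listed. All 10 had enough reads to be tested, together with 14218 genes in all. In B cells lacking Eif4a1 (4A1 KO), 7 of the 10 were decreased, where 13.7% of all genes tested were. Tubb2b was increased, where 11.6% of all genes were. Tuba1c and Tubb2a were not called, Tuba1c because its change was within the fold threshold. The summed level of the alpha- and beta-tubulin mRNAs was 49.7% lower.

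Alpha- and beta-tubulin pair into the heterodimers from which microtubules are built, and gamma-tubulin, in ring-shaped complexes, starts new microtubules. The mRNAs of alpha- and beta-tubulin are under autoregulation. When free heterodimers are in excess, TTC5 recognizes the amino end of a tubulin chain emerging from the ribosome and, through SCAPER, brings the CCR4-NOT deadenylase, so that the mRNA is degraded while it is translated. Activated B cells use microtubules for the mitotic spindle and for polarized transport of vesicles.

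B cells were taken from spleens of C57BL/6 mice aged 8 to 12 weeks, and RNA was sequenced from 4 control (Eif4a1+/+ CD23-cre) and 4 4A1 KO (Eif4a1fl/fl CD23-cre) samples, numbered 1 to 4 in each genotype. Every mouse carried CD23-cre, which acts from the immature B cells of the spleen onwards, and in the 4A1 KO it removes the floxed exons 2 to 4 of Eif4a1, the gene of an RNA helicase of translation initiation. They were kept for 24 h, with 40 ng/ml of IL4, on CD40LB cells, irradiated fibroblast-derived feeders that present CD40 ligand and BAFF, and the feeders were then removed with beads. Replicates 1 and 3 came from males and 2 and 4 from females, with replicates 1 and 2 in batch A and 3 and 4 in batch B. Replicate 1 of both genotypes was left out of the main comparison, as the study did because of its reduced viability, so that n = 3 per genotype unless all 8 libraries are named. The study's methods say that the replicates came from separate mice.

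Between 31727557 and 43210858 reads were counted on genes per library. The level of Eif4a1 was 933 to 1142 TPM (transcript abundance scaled to transcript length and library size, so that genes can be compared) in the control libraries and 700 to 843 in the 4A1 KO libraries, and the genotypes did not overlap (exact permutation test over 8 libraries, two-sided, p = 0.0286, the smallest that 4 against 4 allow). The counts cover the whole gene, the exons that remain after deletion included. The 8 B cell markers summed to 5238 to 6049 TPM in control libraries and to 5487 to 5571 in 4A1 KO, with Fcer2a, which encodes CD23, the highest. Of these markers 4 were decreased, where 13.7% of all genes tested were, and none increased. They were Cd79a (log2 fold change -0.67), Cd79b (-0.89), Cd22 (-0.76) and Cr2 (-1.10), named after their values were seen. The sum is mostly Fcer2a, which was higher in every 4A1 KO library (3561 to 3795 TPM, against 2771 to 3439) and whose log2 fold change of 0.30 was within the threshold. The 12 fibroblast markers had 2.93 to 14.2 TPM in control, highest in control 2, and 3.80 to 8.74 in 4A1 KO, and Dcn, Lum and Postn were at 0 in every library. Col1a1 was the highest of them, and 1 of the 5 that could be tested was decreased. T cell markers summed to at most 2.65 TPM, myeloid markers to at most 6.35 and markers of erythroid cells and platelets to at most 1.80, with Trac, Adgre1 and Pf4 the highest. Of 5 such markers that could be tested, Adgre1 was increased and 4 were not called. In bulk RNA, fewer cells of one kind and less RNA per cell cannot be told apart.

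The start of the coding sequence is shown because it encodes the residues that autoregulation reads. The first 36 coding bases are given 5′ to 3′ from the GENCODE M39 transcripts of GRCm39, with the first 4 codons in capitals. In the alpha-tubulins these codons encode methionine, arginine, glutamate and cysteine, as in Tuba1a, Tuba1b and Tuba4a:
Tuba1a: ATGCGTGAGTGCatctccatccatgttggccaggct
Tuba1b: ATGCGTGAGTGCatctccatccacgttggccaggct
Tuba4a: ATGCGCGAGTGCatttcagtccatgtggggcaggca
The 36 bases of Tuba1c differed from those of Tuba1b at 0 positions, and Tuba1a differed from both at 1. Tuba4a differed from Tuba1b at 8 positions.

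In the beta-tubulins the fourth codon encodes isoleucine in place of cysteine, as in the 4 genes shown:
Tubb5: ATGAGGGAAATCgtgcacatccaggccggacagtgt
Tubb4b: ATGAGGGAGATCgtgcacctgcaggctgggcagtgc
Tubb2a: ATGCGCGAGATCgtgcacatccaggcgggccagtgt
Tubb2b: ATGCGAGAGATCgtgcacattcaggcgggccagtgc
Tubb2a and Tubb2b differed at 3 of the 36 positions and Tubb5 and Tubb4b differed at 6. Of 21634 protein-coding genes in the annotation, 9 begin with the 4 residues of the alpha-tubulins and 8 with those of the beta-tubulins. All 8 of the latter are beta-tubulins, and of the 9 the only one outside the family by name is Gm49450, a read-through gene that spans Tuba1a and Tuba1b.

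Gamma-tubulin, which is no part of the heterodimer, begins with methionine, proline, arginine and glutamate, and is shown for contrast:
Tubg1: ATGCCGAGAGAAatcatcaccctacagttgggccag
Compared position by position without gaps, it differed from the alpha- and beta-tubulins shown at 25 to 28 of the 36 positions. Its proline codon shifts the arginine and glutamate codons, and all later ones, out of register with the other genes. These numbers are therefore no measure of how unlike the sequences are.

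In control B cells the tubulin genes covered a wide range of TPM. Tubb5, the main beta-tubulin of lymphoid and dividing cells, was highest, with 1910 ± 195 TPM (SD, n = 3), and ranked 55 of all genes listed. Tuba1b, a widely expressed alpha-tubulin, followed with 619 ± 53.8 TPM and the beta-tubulin Tubb4b with 423 ± 14.2. Tuba4a (234 ± 32.5) and Tuba1c (222 ± 16.5) were next and did not differ beyond their spread. The same held for Tuba1a (73.7 ± 9.08) and Tubg1 (69.7 ± 5.62). Tubb2a had 24.6 ± 3.65 TPM, and Tubb2b (10.5 ± 1.35) and Tubb6 (8.54 ± 0.547) were lowest. These last did not overlap in controls 2 to 4, and did overlap once control 1 was included. In 4A1 KO B cells Tubb5 and Tuba1b were still first and second, and Tuba1c, with 164 ± 9.66 TPM, was level with Tubb4b (164 ± 29.3), ahead of Tuba4a (134 ± 11.3).

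**Figure D1:**
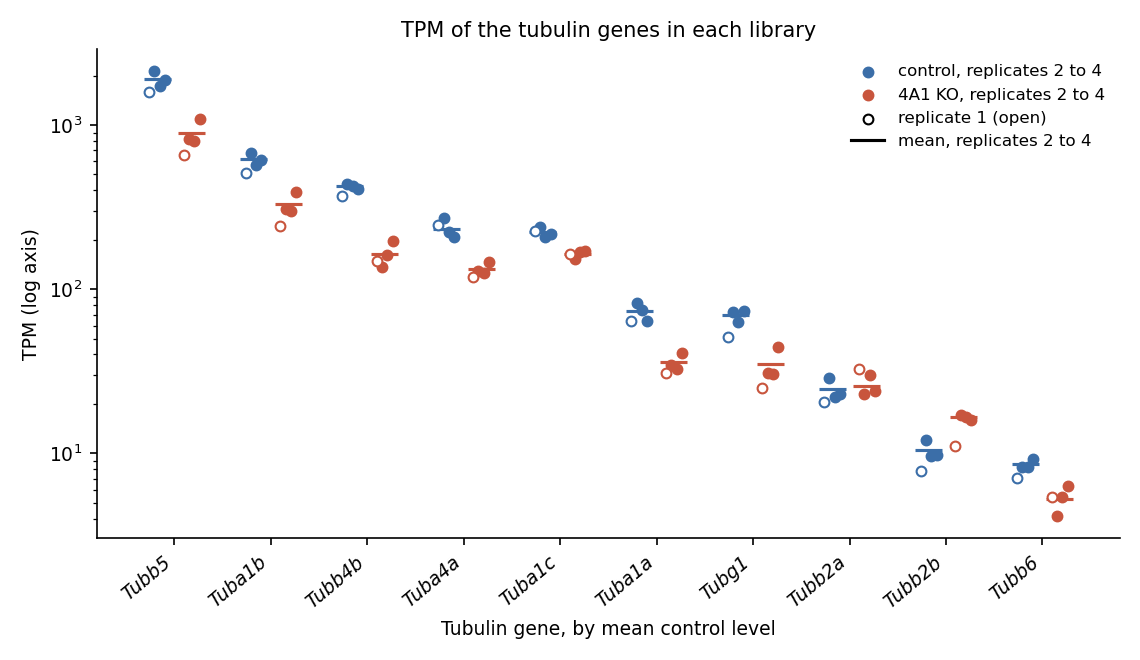
TPM (log axis) of each tubulin gene in each of 8 libraries, ordered by the control mean; filled points are replicates 2 to 4, open points replicate 1, and lines the means of replicates 2 to 4. Every 4A1 KO library lies below every control library for 8 of the 10 genes. Over all genes whose mean reached 1 TPM this held for 19.6%. The genotypes overlap for Tubb2a and, through replicate 1, for Tubb2b.

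Tuba1b lies on chromosome 15 of GRCm39 from 98827738 to 98832493 on the minus strand and has 4 exons. Its TPM were 513, 675, 567 and 615 across controls 1 to 4 and 242, 308, 299 and 388 across 4A1 KO 1 to 4. All 4A1 KO libraries were below all controls, with 4A1 KO 4 the nearest to them. The counts of Tuba1b fell by 0.96 on the log2 scale (standard error 0.09, edgeR adjusted p = 4.86e-05), and 5.88% of the genes tested had a lower fold change.

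Tuba4a, on chromosome 1 from 75189219 to 75196566, encodes an alpha-tubulin made without the terminal tyrosine that other alpha-tubulins carry. It had 246, 271, 224 and 208 TPM across controls 1 to 4 and 118, 129, 125 and 146 across 4A1 KO 1 to 4. The genotypes did not overlap, and its counts fell by 0.75 on the log2 scale (standard error 0.07, adjusted p = 5.31e-05, edgeR). In TPM the log2 difference was -0.80 (limma, adjusted p = 0.00822).

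Tuba1c, on chromosome 15 from 98927748 to 98936266 on the plus strand, was the least affected alpha-tubulin. It had 227, 241, 209 and 217 TPM across controls 1 to 4 and 165, 153, 168 and 170 across 4A1 KO 1 to 4, without overlap. The mean was 26.3% lower in TPM. In counts the log2 fold change was -0.26 (95% interval -0.41 to -0.10, edgeR adjusted p = 0.0108), which was past the threshold for p and not past that of 0.5 for the fold change, and the same held for the TPM at -0.44 (limma adjusted p = 0.0180). Without replicate 2 the threshold for p was missed as well, in counts (-0.16, edgeR adjusted p = 0.0852) and in TPM (-0.33, limma adjusted p = 0.0518).

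Tuba1a lies next to Tuba1b on chromosome 15, from 98847714 to 98851589 on the same strand, and is best known as the alpha-tubulin of developing neurons. Its TPM were 64.2, 82.3, 74.6 and 64.2 across controls 1 to 4 and 31.0, 34.5, 32.5 and 40.7 across 4A1 KO 1 to 4, without overlap, and the mean was 51.3% lower. Its counts were 923, 1383, 1891 and 839 in controls and 283, 399, 350 and 448 in 4A1 KO. Control 3 was therefore highest in counts and not in TPM. The log2 difference was -1.67 in counts (standard error 0.23, adjusted p = 3.28e-04, edgeR) and -1.02 in TPM (adjusted p = 0.00611, limma). In counts it was -1.30 without replicate 3 and -2.06 without replicate 4.

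Tubb5 (chromosome 17, 36144809 to 36149198, minus strand) had the largest fall of the members in TPM units. It had 1593, 2120, 1734 and 1877 TPM across controls 1 to 4 and 660, 818, 794 and 1083 across 4A1 KO 1 to 4. The libraries of the genotypes were far apart, although 4A1 KO 4 stood above the other 4A1 KO libraries. The mean fell by 53.0% in TPM, and the counts of Tubb5 fell by 1.08 on the log2 scale (standard error 0.09, adjusted p = 3.36e-05, edgeR).

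Tubb4b (chromosome 2, 25112170 to 25114714, minus strand), a beta-tubulin found in most tissues, was the most reduced of the abundant members. It had 371, 436, 424 and 408 TPM across controls 1 to 4 and 149, 137, 161 and 195 across 4A1 KO 1 to 4, and the mean fell by 61.1%. Its counts fell by 1.37 on the log2 scale (standard error 0.10, adjusted p = 1.65e-05, edgeR), and 2.88% of the genes tested had a lower fold change.

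Tubb6, a minor beta-tubulin, had the lowest level of the 10 members. It had 7.05, 8.21, 8.25 and 9.17 TPM across controls 1 to 4 and 5.40, 4.15, 5.44 and 6.27 across 4A1 KO 1 to 4. The genotypes did not overlap, and the counts of Tubb6 fell by 1.03 on the log2 scale (standard error 0.14, adjusted p = 3.55e-04, edgeR). On the log2(TPM + 1) scale the difference was -0.62 (limma, adjusted p = 0.00820), and with a pseudocount of 0.1 it was -0.70. The reason for the smaller change in TPM than in counts was not tested.

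Tubb2a (chromosome 13, 34257549 to 34261998) and Tubb2b (34307245 to 34315143), neighbours on the minus strand and known as the main beta-tubulins of brain, did not follow the others. Tubb2a had 20.6, 28.8, 22.1 and 22.9 TPM across controls 1 to 4 and 32.7, 23.0, 29.9 and 23.9 across 4A1 KO 1 to 4. The genotypes overlapped, with the males 4A1 KO 1 and 4A1 KO 3 the highest. The log2 fold change of its counts was 0.04 (95% interval -0.27 to 0.34, adjusted p = 0.845, edgeR), and it had the other sign without replicate 3, at -0.15.

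Tubb2b was the only member that increased. It had 7.78, 12.0, 9.58 and 9.79 TPM across controls 1 to 4 and 11.03, 17.1, 16.7 and 15.8 across 4A1 KO 1 to 4, and was higher in the 4A1 KO in each of 4 same-numbered pairs. Its counts rose by 0.90 on the log2 scale (standard error 0.11, adjusted p = 1.68e-04, edgeR), and its TPM by 0.62 (adjusted p = 0.00536, limma). Over all 8 libraries the genotypes overlapped, as control 2 had more than 4A1 KO 1 (exact permutation test, two-sided, p = 0.0571). In the 6 libraries they did not overlap.

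Tubg1 (chromosome 11, 101010744 to 101017251, plus strand, 11 exons) is the gamma-tubulin of dividing cells. It had 50.9, 72.3, 63.2 and 73.5 TPM across controls 1 to 4 and 25.1, 30.8, 30.4 and 44.4 across 4A1 KO 1 to 4, without overlap. Its counts fell by 0.99 on the log2 scale (standard error 0.09, adjusted p = 5.05e-05, edgeR). In TPM the log2 difference was -0.99 (limma, adjusted p = 0.00458).

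**Figure D2:**
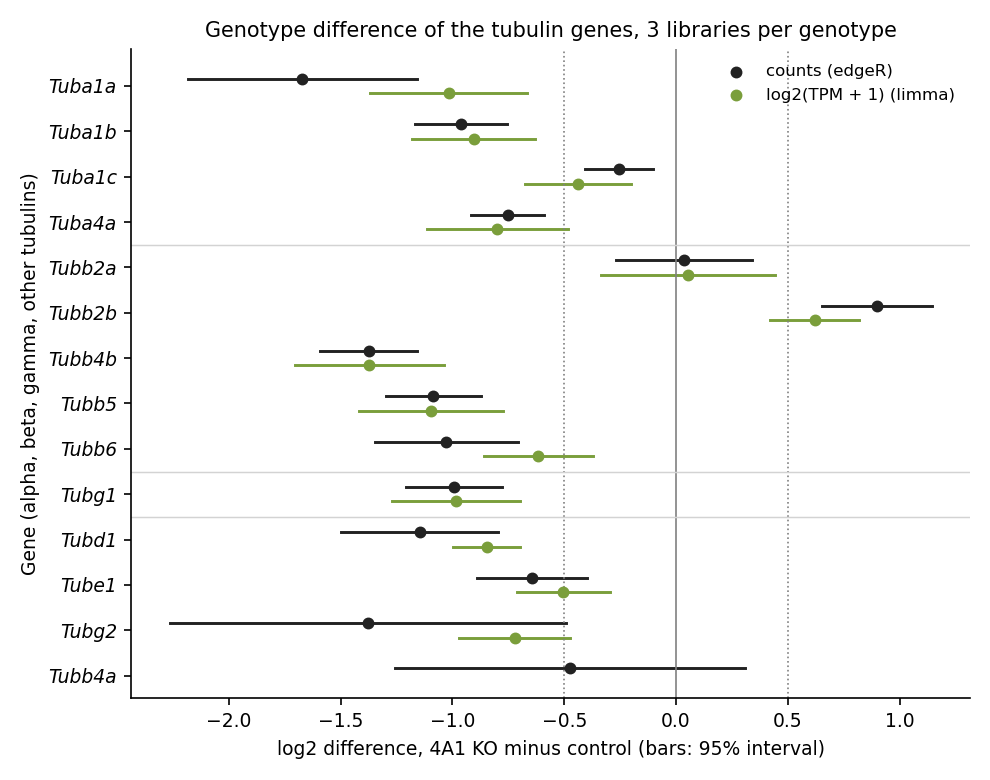
Log2 difference of 4A1 KO from control (3 libraries per genotype) for the 10 tubulin genes and the other tubulins tested, in counts (black, edgeR) and in log2(TPM + 1) (green, limma), with 95% intervals and dotted lines at the fold threshold of 0.5. The intervals lie left of 0 for 8 members in both measures, span 0 for Tubb2a and lie right of 0 for Tubb2b; Tubb4a was under 1 TPM and has no value in TPM.

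Across the members, 7 were decreased in the 6 libraries, where 13.7% of all genes tested were decreased, and 1 was increased, where 11.6% were. In TPM the same numbers were decreased and increased, against 11.7% of all genes for a decrease and 8.29% for an increase. The median log2 fold change in counts was -0.98 over the 10 members and 0.01 over all genes tested. In all 8 libraries 8 members had every 4A1 KO value below every control value in TPM (p = 0.0286 each, two-sided exact permutation test), as had 19.6% of all genes whose mean reached 1 TPM. Over the 6 libraries the smallest p that test allows is 0.1.

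The libraries differed in a shared way. Control 2 had the highest TPM among controls for 8 of the 10 members and control 1 the lowest for 8. Among the 4A1 KO libraries, 4A1 KO 4 was the highest for each of the 8 members that were lower in the 4A1 KO. The fall in TPM between same-numbered libraries was largest in replicate 2 for each of these 8 and smallest in replicate 4 for 6 of them. For Tubb5 the change was -61.4%, -54.2% and -42.3% in replicates 2, 3 and 4, and -58.6% in replicate 1. Stmn1, which encodes a protein that binds free heterodimers, had its highest 4A1 KO level in the same library, with 134 TPM in 4A1 KO 4 against 53.6, 90.4 and 68.1 in 4A1 KO 1 to 3. The part of such differences between libraries in the tubulin values was not tested.

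The level of each class was summed over its members. The 4 alpha-tubulins together had 1149 ± 104 TPM in control and 665 ± 69.9 in the knockout (SD, n = 3), which is -42.1%. The 5 beta-tubulins together had 2376 ± 208.5 and 1110 ± 185 TPM, a change of -53.3%. The ratio of beta- to alpha-tubulin TPM was 2.07 ± 0.03 in control and 1.66 ± 0.10 in 4A1 KO. It was 1.91 to 2.11 in the 4 control libraries and 1.54 to 1.78 in the 4 4A1 KO libraries, without overlap. No test was made of these sums, since they are sums over chosen genes.

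The makeup of each class was compared as shares of its summed TPM. Tubb5 held 80.3% ± 1.28 of the beta-tubulin TPM in control and 80.8% ± 1.73 in the knockout (SD, n = 3), so its share differed by less than the spread between libraries. The share of Tubb4b was 17.9% ± 1.30 and 14.8% ± 1.16. Tubb2a went from 1.03% ± 0.06 to 2.36% ± 0.58 and Tubb2b from 0.44% ± 0.02 to 1.52% ± 0.28 of the beta-tubulin TPM, and for each the 8 libraries did not overlap. Both thus stayed minor beta-tubulins. Tubb6, whose level fell, had 0.36% ± 0.04 of the beta-tubulin TPM in control and 0.48% ± 0.06 in 4A1 KO. Among the alpha-tubulins the share of Tuba1c was 19.3% ± 0.34 in control and 24.7% ± 2.04 in 4A1 KO. Tuba1b had 53.9% ± 1.59 and 49.7% ± 2.14, Tuba1a 6.42% ± 0.56 and 5.40% ± 0.18, and Tuba4a, with 20.3% ± 1.33 and 20.1% ± 0.51, was the alpha-tubulin whose share moved least. Over the 8 libraries the genotypes did not overlap for the shares of Tuba1c, Tuba1a and Tubb6. They overlapped for those of Tubb4b, Tubb5, Tuba1b and Tuba4a.

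**Figure D3:**
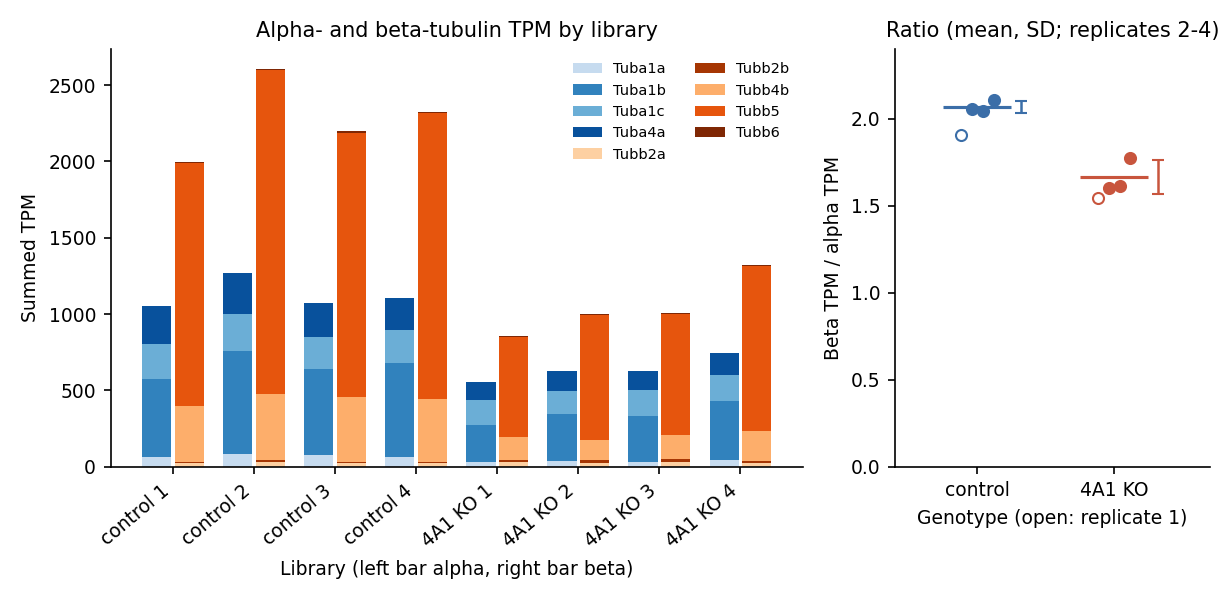
Left, TPM of the alpha-tubulins (blue, left bar) and beta-tubulins (orange, right bar) stacked by gene in each library; right, the ratio of the summed beta- to alpha-tubulin TPM in each library (open points are replicate 1; lines and error bars are the mean and SD of replicates 2 to 4). The ratio is 1.91 to 2.11 in the control libraries and 1.54 to 1.78 in the 4A1 KO libraries.

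The genotype difference was compared between sexes and between batches as an interaction term over all 8 libraries, 20 such tests for the 10 members. None passed an adjusted p of 0.05 in edgeR's test over all genes. The largest of these differences relative to its error was that of Tubb2a between sexes, where the log2 fold change was 0.72 higher in males (standard error 0.18, edgeR adjusted p = 1). For Tubb5 between batches the adjusted p was 0.999 in the same edgeR fit, and 2 of the 20 terms had an unadjusted p under 0.05.

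Of 10 other tubulin genes, 4 had enough reads to be tested and 3 of these were decreased, beside 13.7% of all genes. Tubd1 and Tube1 encode delta- and epsilon-tubulin, which serve the centriole, and Tubg2 encodes a second gamma-tubulin. Tubd1 had 2.30, 3.66, 3.46 and 4.24 TPM across controls 1 to 4 and 0.979, 1.55, 1.49 and 1.94 across 4A1 KO 1 to 4, and its counts fell by 1.15 on the log2 scale (adjusted p = 3.21e-04, edgeR). The counts of Tube1 fell by 0.64 (adjusted p = 0.00106, edgeR), but its libraries overlapped in TPM, and without the replicate block the adjusted p was 0.0699. The counts of Tubg2 fell by 1.38 (adjusted p = 0.0158, edgeR) from a range of only 21 to 30 in control libraries to one of 5 to 18 in the 4A1 KO, and the change was not called without replicate 2 or with DESeq2 (adjusted p = 0.0849 and 0.0932). Tubb4a, at 11 to 28 counts, had a log2 fold change of -0.47 (adjusted p = 0.277, edgeR). Tuba3a and Tuba3b had 0 counts in every library, and Tuba8, Tubal3, Tubb1 and Tubb3 had at most 13.

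The mRNAs of the autoregulation machinery showed no common direction. Of its 12 genes, all tested, 2 were decreased and none increased, where 13.7% of all genes were decreased, and the median log2 fold change was 0.04. Ttc5, the factor that reads the nascent chain, had 43.1, 40.8, 45.1 and 45.6 TPM across controls 1 to 4 and 36.9, 36.9, 42.6 and 42.2 across 4A1 KO 1 to 4. The genotypes overlapped, and the log2 fold change of its counts was -0.11 (95% interval -0.24 to 0.03, adjusted p = 0.157, edgeR). Scaper, the adaptor, had a log2 fold change of 0.33 (adjusted p = 0.00400, edgeR), below the fold threshold, and was higher in every 4A1 KO library, with 10.2 to 11.5 TPM against 8.66 to 9.87. The CCR4-NOT genes Cnot6, a catalytic deadenylase subunit, and Cnot9, a subunit that contacts adaptors, were the decreased ones, with log2 fold changes of -0.74 and -0.56 (adjusted p = 1.65e-05 and 3.14e-05, edgeR). Cnot8, another deadenylase subunit, had -0.35 and was not called.

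The chaperones that fold tubulin were not called in either direction. None of the 20 genes of prefoldin, the CCT chaperonin and the tubulin cofactors passed both thresholds in edgeR's test or in DESeq2, and their median log2 fold change was -0.08. In edgeR 7 of them were lower and 5 higher at an unadjusted p under 0.05. Those with the smallest adjusted p were the CCT subunit Tcp1 (-0.27), the prefoldin subunit Pfdn1 (-0.43) and the cofactor Tbcb (-0.37). Their summed level was 7254 to 7813 TPM in control and 7219 to 7690 in 4A1 KO. Of 8 genes of the gamma-tubulin ring, 1 was decreased (13.7% of all genes were), Mzt2, a small ring protein, with a log2 fold change of -0.58 (adjusted p = 0.00173, edgeR), while Tubgcp2 and Tubgcp6 had -0.32 and -0.25 and were not called.

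Of 14 genes of enzymes that modify tubulin, 5 were decreased and none increased, beside 13.7% and 11.6% of all genes, and the median was -0.33. They were the polyglutamylases Ttll5 (-0.53) and Ttll1 (-1.02), Tpgs2 (-0.56), a subunit of the complex of Ttll1, and the tyrosine-removing enzymes Vash1 (-2.02) and Vash2 (-1.92), which had at most 37 counts in any library. DESeq2 called 4 of the 5 and not Vash1 (adjusted p = 0.0642), and Ttll5 was not called without replicate 3 (-0.46). Ttll1, Tpgs2, Vash1 and Vash2 are named after their values were seen. Ttll12 had a log2 fold change of -0.45 and Agtpbp1, which removes glutamates, 0.37, both past an adjusted p of 0.05 in edgeR's test and within the fold threshold.

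Of 18 tested genes that control microtubule dynamics, 3 were decreased and none increased, and the median was -0.08. The share decreased was near the 13.7% of all genes. Stmn1 had a log2 fold change of -1.51 (adjusted p = 2.07e-05, edgeR), with 188 to 325.5 TPM in control and 53.6 to 134 in 4A1 KO. Kif2c, a depolymerizing kinesin of the spindle, had -2.62 (-3.41 without replicate 4), and Fignl1, a relative of the microtubule-severing enzyme fidgetin, had -1.04. Of 15 genes of other cytoskeletal systems 3 were decreased, again near that share, and the median was -0.25. At an unadjusted p under 0.05 in edgeR, 12 of the 15 were lower and 0 higher. Among the 3 decreased were Actg1, a cytoplasmic actin (-0.75), and Septin9 (-1.29). The nuclear lamin gene Lmna, the third, was chosen after its value was seen (-0.63) and was not called with DESeq2 (adjusted p = 0.110), and Lmnb1 (-0.49) was just within the threshold. In none of these lists, the other tubulins included, was a gene increased in edgeR's test (11.6% of all genes were) or in DESeq2. At an unadjusted p under 0.05, 16 of their genes were higher and 46 lower in edgeR. In DESeq2 12 were higher and 43 lower.

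**Figure D4:**
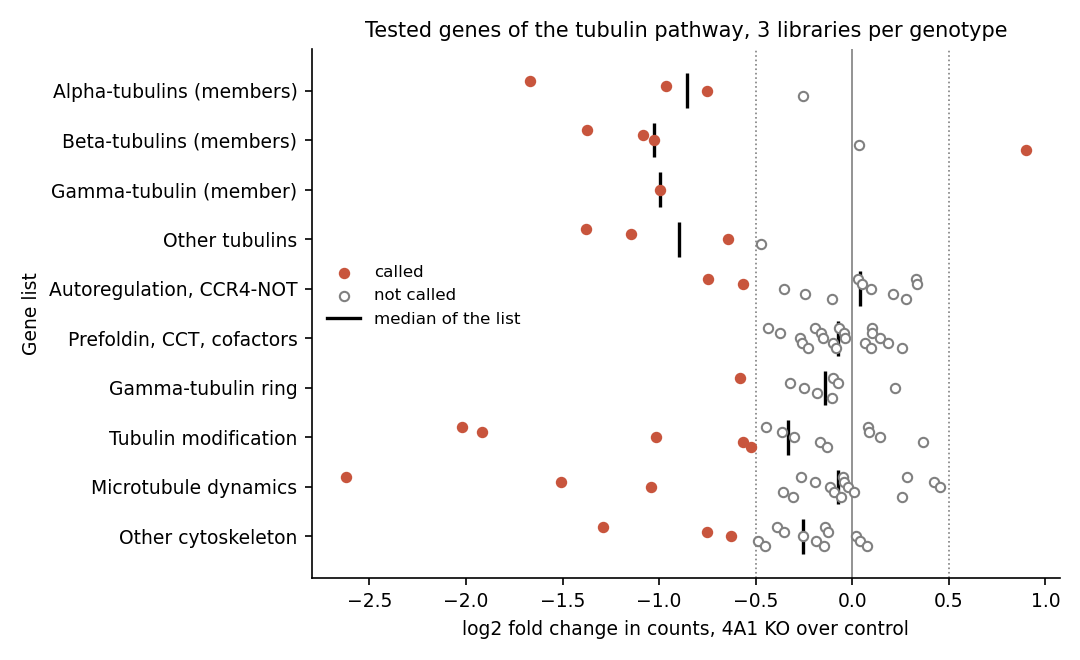
Log2 fold change in counts (4A1 KO over control, 3 libraries per genotype) of each tested gene, by gene list; filled red points were called, open grey points were not, vertical lines are list medians, and dotted lines mark the fold threshold of 0.5. The median was -0.86 for the alpha- and -1.03 for the beta-tubulins, and between -0.33 and 0.04 for the lists of partners and of other cytoskeletal genes.

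Members with near copies could exchange reads. The mRNAs were cut into all stretches of 50 bases, the length of 1 read, and searched in the GRCm39 genome and in all GENCODE M39 transcripts. All stretches of Tubb6, 99.1% of those of Tuba4a and 98.6% of those of Tubb5 were found nowhere else. For Tubg1 it was 86.1%, with Tubg2 the main other place, for Tubb2b 81.2% and for Tubb2a 66.0%. It was 55.7% for Tuba1b, 45.4% for Tuba1c, 42.2% for Tubb4b and only 23.4% for Tuba1a. The coding sequences of Tuba1a, Tuba1b and Tuba1c are 97.1% to 98.3% identical and those of Tubb2a and Tubb2b 96.5%, so the split of reads within these groups is uncertain. The read-through gene Gm49450, which overlaps Tuba1a and Tuba1b on their strand, took 2092 to 2976 counts in control and 656 to 1516 in 4A1 KO.

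**Figure D5:**
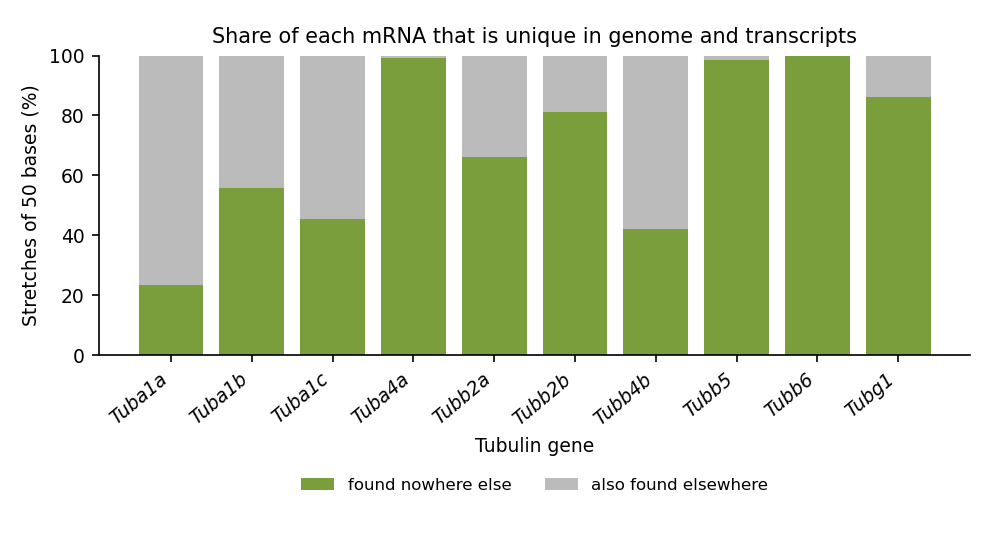
Share (%) of all stretches of 50 bases of each tubulin mRNA that occur nowhere else in genome or transcripts (green) or also elsewhere (grey). Tuba1a has the lowest unique share, 23.4%, and Tubb6, Tuba4a and Tubb5 have over 98%.

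Sums over near copies were also formed, which another split of reads among the summed genes would not change. How reads with several places were counted is not known here, and reads dropped or counted in several genes would still alter these sums. Gm49450 overlaps Tuba1a and Tuba1b on their strand, so the same reads may be counted for it and for them. There were 7 pseudogenes in the count table that share at least 20% of the stretches of a member. Of these, 6 did so with the Tuba1 genes and 1, Tubb4b-ps1, with Tubb4b. Of the 7, 6 were decreased, where 13.7% of all genes tested were, and their median log2 fold change was -0.99. The counts of these pseudogenes may hold reads of the members, so their fall is no separate observation. With Gm49450 and these pseudogenes added, Tuba1a, Tuba1b and Tuba1c together had 552, 680, 606 and 575 CPM (counts scaled to library size) across controls 1 to 4 and 315, 332, 334 and 394 across 4A1 KO 1 to 4. The genotypes did not overlap in this sum, of which the added copies made up 9.76% to 14.6%. Tubb2a and Tubb2b together had 19.8, 27.5, 20.7 and 20.7 CPM across controls 1 to 4 and 30.1, 28.1, 31.97 and 25.8 across 4A1 KO 1 to 4, so that their sum overlapped through control 2. Every member except Tuba1c overlaps an annotated gene on the other strand, and the counting was strand-specific.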

How the data were processed

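RNA of 4 control and 4 4A1 KO samples was sequenced as directional, paired libraries. Per the labels the authors trimmed reads with Trim Galore 0.6.6 and mapped them to GRCm39 with HISAT2 2.1.0. The deposited counts are raw reads per gene over merged isoforms, which the authors made with SeqMonk on the opposing strand, and the deposited TPM were calculated by the authors with StringTie 2.1.1. How reads with several places were counted is not given in the sources used here. Total counts per library set the precision, and errors are between libraries.

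In R 4.3.3, counts of the 6 libraries were filtered with filterByExpr, TMM-normalized and fitted with edgeR 4.0.16 (quasi-likelihood; batch, sex and genotype). Calls needed an adjusted p under 0.05 (Benjamini-Hochberg over all genes tested, two-sided) and a log2 fold change beyond 0.5. TPM were fitted with limma 3.58.1 on log2(TPM + 1) over 12976 genes whose mean reached 1 TPM. Intervals are 95%. In the 6 libraries batch and sex are the replicate number as a block; same-numbered libraries correlated at 0.488, 0.403 and 0.333 across genes after centring on each genotype, and the pairing comes from batch and sex in the labels. The alternatives were DESeq2 1.42.0 and its size factors, no filters, a pseudocount of 0.1, no block, all 8 libraries and leaving out each replicate. The sums with copies were chosen after seeing the data. The code was tested on simulated data.

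The members and the gene lists were chosen with earlier results of these data known. All members, Ttc5, Scaper, Eif4a1, every other tubulin tested, and the 3 genes with the smallest adjusted p of each list are named, other genes only where the text says so. Of 53242 identifiers 52647 matched GENCODE M39.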

Additional observations from a re-analysis of the deposited data

Results flagged for a closer look

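Of 40 groups of 4 libraries examined, 1 had a library far from the other 3, where chance alone gives about 1 in 20, or 2. In the control libraries Tubb2a had a CPM of 20.1 in control 2 and 14.7 to 15.1 in the others, and the gap to the nearest library was 0.914 of the whole range. Control 2 also had the highest TPM of 8 of the 10 tubulin genes among controls, and the highest summed TPM of the fibroblast markers (14.2, against 2.93 to 5.82 in the other controls). The part of these differences in the level of Tubb2a was not tested.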

How the results depend on the processing

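In the counts, 7 members were decreased and 1 increased under DESeq2's size factors, no filter on low counts, DESeq2's own test, no block, all 8 libraries and each fit without 1 replicate, and in the TPM under a pseudocount of 0.1, no filter, no block, all 8 libraries and each such fit. Tubb2a, which was not called, turned direction without replicate 3, and the fits that left out 1 replicate gave -0.15 to 0.24 in counts and -0.13 to 0.24 in TPM; the cause was not tested. Without the replicate block, which stands for the pairing by batch and sex, 1658 genes were decreased and 1342 increased over the whole table, against 1949 and 1647 with it. Without the block Tube1 had an adjusted p of 0.0699 (edgeR). In the fits that each left out 1 replicate, the number of all genes decreased was 1690 to 2093 and increased 1393 to 1728. The log2 fold change of Tubb5 was -1.24 to -0.95 and that of Tubb4b -1.53 to -1.24 in these fits. Tuba1c missed the threshold for p without the filter on low TPM (limma adjusted p = 0.0621). Among other named genes, Ttll5 was not called without replicate 3, at -0.46, whereas Ttll12 was called without replicate 4 (-0.53) and Lmnb1 without replicate 3 or 4 (-0.52 in each). Low depth limits Tubg2, Tubb4a, Vash1 and Vash2, and shared sequence limits Tuba1a, Tuba1b, Tuba1c, Tubb4b, Tubb2a and Tubb2b.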
